A study of Rattus norvegicus with 10 samples.

Results

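Markers of the choroid plexus, the leptomeninges and other tissue next to the hippocampus were followed rat by rat in RNA from the left hippocampus. They are 39 named genes out of 17168 rows of the deposited count table, and 37 of the 39 passed the filter on low counts that 12355 rows passed. The genes were chosen by their levels in these same libraries, as known markers of tissue beside the hippocampus that stood high in single libraries. Their levels and their differences between the groups are therefore descriptions. Where the fit across all genes called one of them, the call is counted beside the share of all genes called and carries no independent weight. By tissue they are 14 genes of choroid plexus epithelium, 2 growth factor genes of choroid plexus and meninges, 13 genes of the leptomeninges, 4 of the thalamus, 3 of the pituitary and 3 of the ependyma. The tissue was taken at 11 months of age from 5 male TgF344-AD rats given ibudilast, a phosphodiesterase inhibitor, from 5 months of age for 6 months, and from 5 male TgF344-AD rats kept on rodent chow without the drug. All 10 rats are transgenic: the strain carries human transgenes with mutations of familial Alzheimer's disease under the mouse prion promoter, and rats without the transgenes were not analysed here. Every rat was perfused with saline before dissection, and the left hippocampus of each gave 1 library. Only the ibudilast samples were kept in RNAlater-ICE, a solution for frozen tissue, so treatment and storage cannot be told apart in any difference between the groups.

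The choroid plexus is a folded epithelium in the brain's ventricles that makes cerebrospinal fluid. Its cells secrete carrier proteins such as transthyretin and move ions, water and vitamins from blood to fluid. In the lateral ventricle it lies against the hippocampal fimbria. The leptomeninges, the arachnoid and pia, are layers of fibroblasts and matrix on the brain surface that also follow the hippocampal fissure inwards, and the ependyma is the ciliated lining of the ventricles. The thalamus lies below the hippocampus, and the pituitary below the hypothalamus. Several of these markers have another source inside the hippocampus. Enpp2 and Ptgds are also made by oligodendrocytes, and Igfbp2 by astrocytes.

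Sequence before the start site was available in RefSeq's GRCr8 promoter table, matched by symbol, for 26 of the 39 genes. Stretches of 250 bases before the start are shown for 4 genes that stand for the 3 patterns described further on: Kl and Aqp1 for the choroid plexus, Ptgds for the leptomeninges and Pomc for the pituitary. They lie at chr12:5325753-5326002 on the plus strand (Kl), chr4:85812534-85812783 on the plus strand (Aqp1), chr3:28682979-28683228 on the minus strand (Ptgds) and chr6:32659103-32659352 on the plus strand (Pomc). Each is written 5′ to 3′ on the gene's strand and ends at the base before the start, with TATAAA in capitals.
Kl: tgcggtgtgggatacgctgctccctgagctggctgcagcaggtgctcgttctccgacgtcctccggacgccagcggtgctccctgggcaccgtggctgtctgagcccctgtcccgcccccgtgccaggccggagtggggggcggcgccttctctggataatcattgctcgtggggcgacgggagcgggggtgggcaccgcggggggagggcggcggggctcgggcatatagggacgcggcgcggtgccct
Aqp1: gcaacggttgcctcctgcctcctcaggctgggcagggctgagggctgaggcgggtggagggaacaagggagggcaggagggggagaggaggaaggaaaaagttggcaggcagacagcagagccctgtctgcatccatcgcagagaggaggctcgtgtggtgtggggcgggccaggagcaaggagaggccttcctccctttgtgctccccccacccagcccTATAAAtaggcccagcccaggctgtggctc
Ptgds: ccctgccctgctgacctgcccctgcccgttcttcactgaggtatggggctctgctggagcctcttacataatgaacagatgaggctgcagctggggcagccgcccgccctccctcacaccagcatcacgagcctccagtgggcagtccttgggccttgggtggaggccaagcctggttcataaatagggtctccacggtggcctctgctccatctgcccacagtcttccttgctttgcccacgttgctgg
Pomc: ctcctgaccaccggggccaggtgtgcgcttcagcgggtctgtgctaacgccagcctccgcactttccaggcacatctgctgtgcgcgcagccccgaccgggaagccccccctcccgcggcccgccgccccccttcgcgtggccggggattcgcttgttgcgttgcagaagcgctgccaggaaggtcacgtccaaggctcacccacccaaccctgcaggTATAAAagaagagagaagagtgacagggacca
TATAAA, searched on both strands of the 300 bases from 250 before to 50 after the start, occurred in 6 of the 26 promoters (23.1%) and in 14.2% of all 33469 promoters of the table. The 6 are Aqp1, Ogn, Crabp2, Prkcd, Pomc and Prl. In Aqp1 it begins 30 bases and in Pomc 32 bases before the start, on the gene's own strand. TAATCC, the core bound by OTX2, TGTTTAC, a motif of FOXJ1, and GTTGCCA, part of the X-box of ciliary genes, were in 0 of the 26, against 7.17%, 3.78% and 4.56% of all promoters. TATAAA was chosen after the other motifs had been searched.

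Libraries held 14806807 to 18533520 counts. Levels are given as CPM, counts scaled to a common library size after edgeR's TMM factors, and not divided by gene length, so levels of different genes are not compared. In all, 3 libraries stood apart by these genes. By CPM the 39 genes together came to 1.09% in ibudilast replicate 1, 1.11% in ibudilast replicate 4 and 1.56% in untreated replicate 2. In the other 7 they came to 0.0614% to 0.139%. These percentages are of TMM-scaled library sizes and not of raw counts. Of the 12 markers of hippocampal neurons, Tdo2 was at 0 in every library, and the summed CPM of the 12 was 841, 781, 1156, 334 and 1022 in ibudilast replicates 1 to 5 and 1281, 1203, 599, 1006 and 1721 in untreated replicates 1 to 5. It was lowest in ibudilast replicate 4, with untreated replicate 3 next. In bulk tissue, fewer cells of a type and less RNA per cell cannot be told apart.

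**Figure D1:**
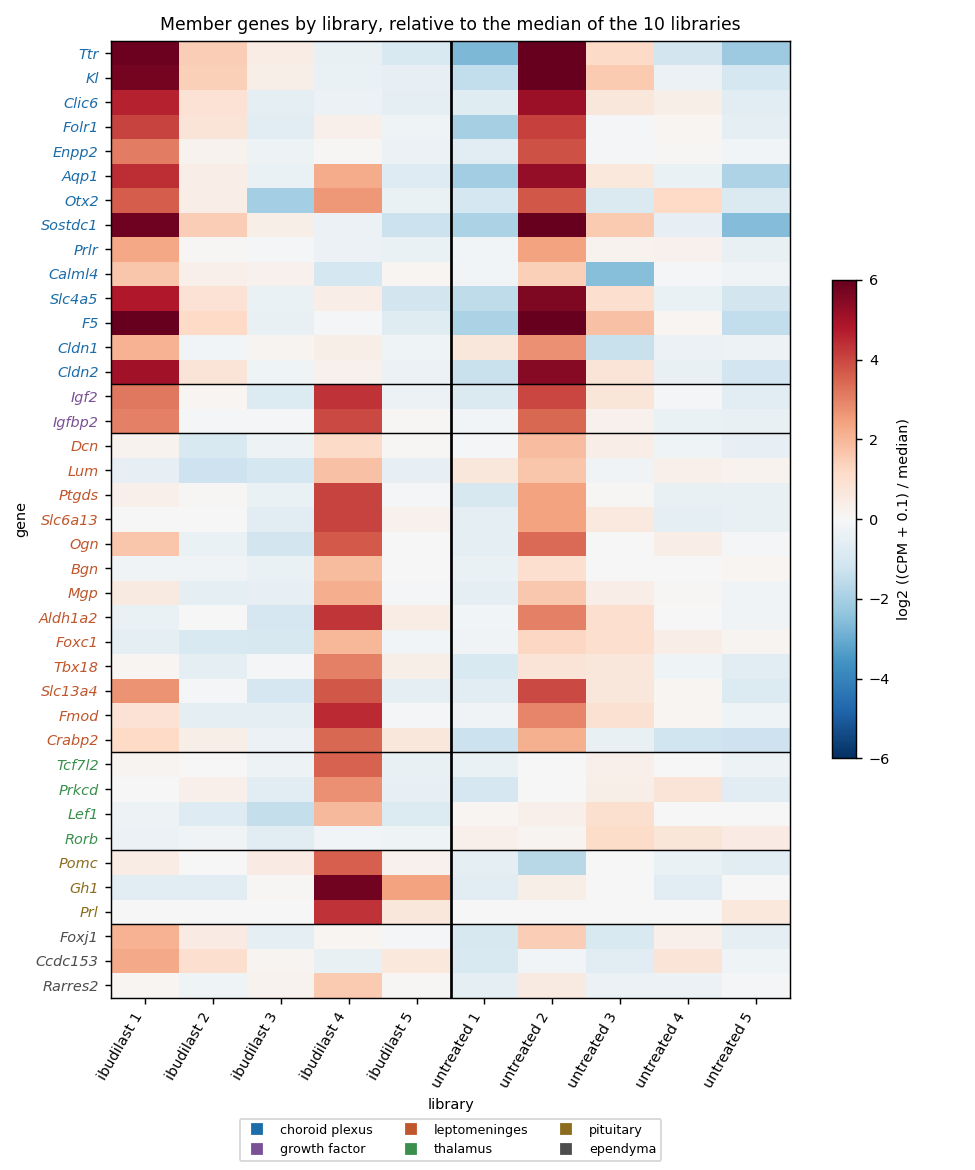
Levels of the 39 genes in each of the 10 libraries, ibudilast replicates on the left and untreated replicates on the right, as log2 of CPM plus 0.1 relative to the gene's median over the libraries. The choroid plexus genes at the top are high in ibudilast 1 and untreated 2, and the leptomeningeal genes in ibudilast 4 and untreated 2.

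Choroid plexus genes were high in 2 of the 10 rats, 1 from each group, and low in the rest. For 14 of the 14 genes the 2 highest libraries were ibudilast replicate 1 and untreated replicate 2, and untreated replicate 2 was the higher of the pair for 13. Summed over the 14 genes, CPM was 9322, 611, 349.8, 342 and 244 in ibudilast replicates 1 to 5, against 166, 11329, 496, 296 and 224 in untreated replicates 1 to 5. Without Ttr and Enpp2, which make up most of that sum, the sum over the other 12 was 1094, 77.9, 43.7, 63.2 and 36.3 CPM in ibudilast replicates 1 to 5 and 30.8, 1518, 67.2, 49.3 and 29.0 CPM in untreated replicates 1 to 5. Both sums put the same pair of libraries on top, and the groups overlapped.

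Among secreted proteins and receptors, Ttr, the carrier of thyroid hormone and retinol-binding protein, had 6666, 317, 153, 82.2 and 59.2 CPM in ibudilast replicates 1 to 5, against 17.3, 7121, 247, 52.2 and 25.0 CPM in untreated replicates 1 to 5. Its level in ibudilast replicate 1 was 43.5 times the median of ibudilast replicates 2, 3 and 5, and in untreated replicate 2 it was 184 times the median of the other untreated libraries. Even outside this pair it spanned more than an order of magnitude, with untreated replicate 1 lowest. Kl encodes klotho, a co-receptor of fibroblast growth factor 23, and had 211, 10.4, 4.95, 2.84 and 2.66 CPM in ibudilast replicates 1 to 5, against 1.32, 278, 11.5, 2.95 and 1.82 CPM in untreated replicates 1 to 5. Folr1, the folate receptor that carries folate into the fluid, had 55.2, 5.60, 2.02, 3.96 and 2.66 CPM in ibudilast replicates 1 to 5, against 0.721, 57.8, 2.997, 3.46 and 2.103 CPM in untreated replicates 1 to 5. Sostdc1, a secreted antagonist of BMP and Wnt signals, had 113, 5.30, 2.44, 1.42 and 0.695 CPM in ibudilast replicates 1 to 5, against 0.421, 148, 5.74, 1.28 and 0.227 CPM in untreated replicates 1 to 5. In each of these genes a single library of each group stood far above the other 4, and ibudilast replicate 4, which was high for other tissues, did not. Enpp2, autotaxin, which makes lysophosphatidic acid, had 1562, 216, 153, 197 and 148 CPM in ibudilast replicates 1 to 5, against 118, 2689.9, 181, 195 and 169.6 CPM in untreated replicates 1 to 5. Its level in the other 8 libraries did not drop below 118 CPM, and the high pair was raised less, 10.2 and 15.3 times over the same medians in ibudilast replicate 1 and untreated replicate 2. F5, coagulation factor V, reached 189 CPM in ibudilast replicate 1 and 281 CPM in untreated replicate 2, and was between 0.661 and 9.49 CPM in the other 8. Prlr, the prolactin receptor, was at 28.8 CPM in ibudilast replicate 1 and 30.7 CPM in untreated replicate 2, and at 4.26 to 6.86 CPM elsewhere.

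Channels, transporters and junction proteins of the epithelium followed the same libraries. Aqp1, the water channel of the apical membrane, had 47.3, 2.80, 1.60, 10.4 and 1.22 CPM in ibudilast replicates 1 to 5, against 0.421, 85.1, 3.37, 1.60 and 0.511 CPM in untreated replicates 1 to 5. Ibudilast replicate 4 came next after the high pair. Slc4a5, a sodium bicarbonate cotransporter, had 103, 6.61, 2.72, 4.73 and 1.62 CPM in ibudilast replicates 1 to 5, against 1.202, 181, 7.37, 2.75 and 1.65 CPM in untreated replicates 1 to 5. Clic6, a chloride intracellular channel protein, had 163, 11.8, 4.25, 5.02 and 4.34 CPM in ibudilast replicates 1 to 5, against 3.91, 229, 10.3, 8.39 and 4.15 CPM in untreated replicates 1 to 5. Cldn2, a tight junction claudin that lets cations pass, had 108, 5.48, 2.65, 3.78 and 2.49 CPM in ibudilast replicates 1 to 5, against 1.202, 143, 5.56, 2.31 and 1.36 CPM in untreated replicates 1 to 5. These 3 genes were high in ibudilast replicate 1 and untreated replicate 2 and in no other library. Cldn1, a relative of Cldn2 that seals junctions, was less uneven, at 18.5 CPM in ibudilast replicate 1, 29.0 CPM in untreated replicate 2 and 1.62 to 6.85 CPM in the other 8. Calml4, a calmodulin-like protein, was the 1 gene of the 14 that was higher in ibudilast replicate 1, at 27.7 CPM, than in untreated replicate 2, at 23.3 CPM, and its other libraries lay between 1.37 and 10.5 CPM. Otx2, the homeodomain factor on which the choroid plexus depends, had 30.0, 3.15, 0.488, 14.5 and 1.74 CPM in ibudilast replicates 1 to 5, against 1.08, 31.9, 1.25, 5.51 and 1.25 CPM in untreated replicates 1 to 5. As for Aqp1, ibudilast replicate 4 came next, at 8.37 times the median of ibudilast replicates 2, 3 and 5, while the median over the 14 genes in that library was 1.28 times.

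The proportions among the 14 genes were alike in the 2 high libraries. The ratio of ibudilast replicate 1 to untreated replicate 2 ran from 0.556 for Aqp1 to 1.19 for Calml4, with a median of 0.757. Ibudilast replicate 2 and untreated replicate 3 held the next highest levels for 7 of the 14 genes, Ttr, Kl and Sostdc1 among them, at much smaller sizes. The median ratio to untreated replicate 2 was 0.0480 for ibudilast replicate 2, with a range of 0.0227 (F5) to 0.452 (Calml4). It was 0.0410 for untreated replicate 3, with a range of 0.0338 (F5) to 0.217 (Prlr). The ratio for Prlr was 0.197 in ibudilast replicate 2, close to that in untreated replicate 3. For Calml4 it was 0.0589 in untreated replicate 3, which held the lowest level of that gene in the 10 libraries.

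**Figure D2:**
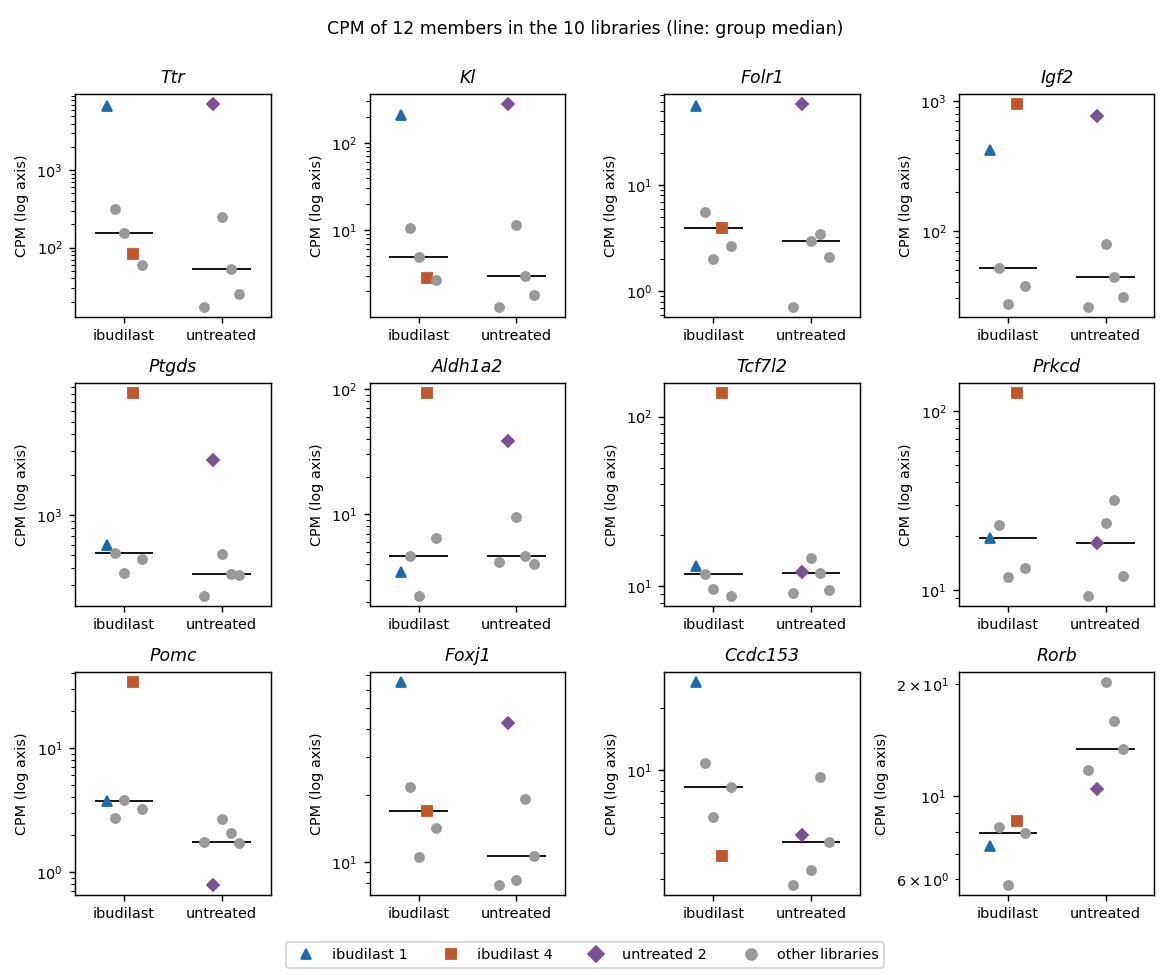
CPM on a log axis of 12 of the 39 genes in the 10 libraries, ibudilast left and untreated right, with the 3 libraries that stood apart marked and a line at each group's median. Ttr, Kl and Folr1 have 1 high library in each group, Tcf7l2 and Pomc have 1 high library in all, and Rorb and Pomc are the genes of the 39 whose groups do not overlap.

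The 2 growth factor genes were high in all 3 libraries. Igf2, insulin-like growth factor 2, had 423, 51.8, 27.2, 952 and 37.5 CPM in ibudilast replicates 1 to 5, against 26.0, 767, 78.5, 43.6 and 30.6 CPM in untreated replicates 1 to 5. Igfbp2, which binds it, had 209, 24.8, 24.3, 397 and 26.7 CPM in ibudilast replicates 1 to 5, against 22.6, 278, 30.7, 19.2 and 19.0 CPM in untreated replicates 1 to 5. For both genes the order was ibudilast replicate 4, untreated replicate 2, ibudilast replicate 1 and then, well below, the other 7 libraries.

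Leptomeningeal genes marked a different pair of rats, ibudilast replicate 4 and untreated replicate 2. These were the 2 highest libraries for 13 of the 13 genes, and ibudilast replicate 4 was the higher for 11, the exceptions being Dcn and Slc13a4. The summed CPM of the 13 genes was 778, 607, 448, 8984 and 578 in ibudilast replicates 1 to 5, against 340.2, 3125, 657, 478 and 462 in untreated replicates 1 to 5, most of it from Ptgds. Ibudilast replicate 1, high for the choroid plexus, was set against the median of ibudilast replicates 2, 3 and 5. Over these genes it had a median of 1.40 times that level, with a range of 0.744 (Aldh1a2) to 9.55 (Slc13a4). Untreated replicate 2 was therefore high for both tissues, while each of the ibudilast pair was high for 1 of them.

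Matrix proteoglycans and matrix proteins came first among these genes. Fmod, fibromodulin, a small leucine-rich proteoglycan that binds collagen, had 12.4, 4.40, 4.53, 153 and 6.08 CPM in ibudilast replicates 1 to 5, against 5.71, 51.1, 12.6, 7.30 and 5.57 CPM in untreated replicates 1 to 5. Ogn, osteoglycin, of the same family, had 27.6, 6.55, 3.91, 109 and 8.39 CPM in ibudilast replicates 1 to 5, against 5.89, 91.2, 8.68, 11.2 and 7.79 CPM in untreated replicates 1 to 5. Ibudilast replicate 4 was 33.7 times the median of ibudilast replicates 2, 3 and 5 for Fmod and 16.7 times for Ogn. Untreated replicate 2 was 7.85 and 11.1 times the median of the other untreated libraries. Bgn, biglycan, was flatter, at 37.7, 37.7, 33.4, 162 and 44.0 CPM in ibudilast replicates 1 to 5, against 33.1, 88.3, 43.4, 45.0 and 47.3 CPM in untreated replicates 1 to 5. Lum, lumican, had 2.99, 1.79, 2.02, 14.7 and 3.07 CPM in ibudilast replicates 1 to 5, against 7.03, 14.1, 3.75, 5.32 and 4.94 CPM in untreated replicates 1 to 5. Its levels in the high pair were nearly equal. Dcn, decorin, reached 29.4 CPM in ibudilast replicate 4 and 47.6 CPM in untreated replicate 2, with the other 8 libraries between 6.96 and 17.4 CPM. Mgp, matrix Gla protein, an inhibitor of calcification, reached 43.5 CPM in ibudilast replicate 4 and 29.4 CPM in untreated replicate 2, with the rest between 6.49 and 13.9 CPM. All 6 of these matrix genes were detected in all 10 libraries.

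Enzymes, carriers and transporters of the leptomeninges showed the same pair. Ptgds, the lipocalin-type prostaglandin D synthase, had 599, 519.9, 371, 8144 and 465 CPM in ibudilast replicates 1 to 5, against 249.7, 2595, 511, 360.3 and 357 CPM in untreated replicates 1 to 5. Aldh1a2, which makes retinoic acid, had 3.45, 4.64, 2.23, 92.7 and 6.42 CPM in ibudilast replicates 1 to 5, against 4.15, 38.5, 9.55, 4.61 and 3.98 CPM in untreated replicates 1 to 5. Crabp2, which carries retinoic acid to its nuclear receptor, had 4.89, 2.62, 1.60, 23.4 and 3.30 CPM in ibudilast replicates 1 to 5, against 0.781, 9.48, 1.498, 0.833 and 0.796 CPM in untreated replicates 1 to 5. Ibudilast replicate 4 stood highest for all 3 of them, at 17.5, 20.0 and 8.95 times the median of ibudilast replicates 2, 3 and 5. Slc6a13, a GABA and taurine transporter, had 3.63, 3.51, 2.16, 61.0 and 4.23 CPM in ibudilast replicates 1 to 5, against 2.40, 19.4, 5.37, 2.43 and 2.61 CPM in untreated replicates 1 to 5. Slc13a4, a sulfate transporter, had 50.3, 6.90, 3.77, 101 and 5.27 CPM in ibudilast replicates 1 to 5, against 4.69, 119.6, 12.2, 8.39 and 4.32 CPM in untreated replicates 1 to 5. Of the 13 genes Slc13a4 was the most raised in ibudilast replicate 1, at 9.55 times the median of ibudilast replicates 2, 3 and 5, so that all 3 libraries stood out for it. The transcription factor Foxc1, needed for the meninges to form, had 4.78, 3.75, 3.63, 29.1 and 6.37 CPM in ibudilast replicates 1 to 5, against 6.19, 17.3, 14.3, 9.61 and 8.07 CPM in untreated replicates 1 to 5. Tbx18, a T-box factor of pericytes and mesenchyme, was at 21.4 CPM in ibudilast replicate 4 and at 1.32 to 4.42 CPM in the other 9. Untreated replicate 2 came next and barely exceeded untreated replicate 3, at 4.42 CPM against 4.18 CPM. Over the 13 genes the ratio of ibudilast replicate 4 to untreated replicate 2 ran from 0.617 (Dcn) to 4.84 (Tbx18), with a median of 1.84. The summed CPM of 10 markers of blood vessel cells was 568 in ibudilast replicate 4, against 174 to 236 in the other ibudilast libraries. Among untreated libraries it was 411 in replicate 3, 362 in replicate 2 and 235 to 267 in the rest. The part of vessel cells in the levels of these genes was not tested.

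Of the 4 thalamic genes, 3 were high in ibudilast replicate 4 alone. Tcf7l2, an HMG-box factor of Wnt signalling found in thalamic neurons, had 13.1, 11.8, 9.62, 137 and 8.80 CPM in ibudilast replicates 1 to 5, against 9.08, 12.1, 14.6, 11.9 and 9.49 CPM in untreated replicates 1 to 5. Prkcd, protein kinase C delta, had 19.5, 23.0, 11.8, 125 and 13.2 CPM in ibudilast replicates 1 to 5, against 9.32, 18.3, 23.7, 31.9 and 12.05 CPM in untreated replicates 1 to 5. Lef1, a relative of Tcf7l2, had 3.28, 2.38, 1.46, 15.9 and 2.26 CPM in ibudilast replicates 1 to 5, against 4.45, 5.11, 7.99, 4.10 and 4.09 CPM in untreated replicates 1 to 5. Their peaks in ibudilast replicate 4 were 14.3, 9.50 and 7.04 times the median of ibudilast replicates 2, 3 and 5. Untreated replicate 2 was only 1.02 to 1.19 times the median of the other untreated libraries for these 3 genes. Rorb, an orphan nuclear receptor of thalamus and cortical layer 4, did not share the peak. It had 7.37, 8.27, 5.79, 8.56 and 7.99 CPM in ibudilast replicates 1 to 5, against 11.8, 10.5, 20.2, 15.95 and 13.4 CPM in untreated replicates 1 to 5. All 5 ibudilast values lay below all 5 untreated values, and ibudilast replicate 4, the highest of its group, was 1.07 times the median of ibudilast replicates 2, 3 and 5. The highest Rorb level was in untreated replicate 3. The summed CPM of 8 cortical markers was also highest there, at 345, against 170.4 to 223 in the other untreated libraries and 182 to 267 in the ibudilast libraries. Cux2 alone made up 147 of the 345. Of the 4 cortical markers with the highest mean CPM, Cux2 and Ctgf had their highest untreated level there. Fezf2 had its lowest, at 21.8 CPM, and Lamp5 had neither. Without untreated replicate 3 Rorb was still called lower, with a log2 fold change of −0.79. The part of cortical tissue in the Rorb difference was not tested.

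Pituitary hormones appeared at low levels, and all 3 were highest in ibudilast replicate 4. Pomc, the precursor of ACTH and of melanocortins, had 3.74, 2.74, 3.84, 33.9 and 3.24 CPM in ibudilast replicates 1 to 5, against 1.74, 0.790, 2.68, 2.05 and 1.70 CPM in untreated replicates 1 to 5. Its lowest ibudilast value, 2.74 CPM, was just above its highest untreated value, 2.68 CPM. Gh1, growth hormone, had 148 counts in ibudilast replicate 4, which is 8.74 CPM with an exact Poisson 95% interval of 7.39 to 10.3. It had 13 counts in ibudilast replicate 5, 0.752 CPM with an interval of 0.401 to 1.29, and 0 to 2 counts in each of the other 8 libraries. Prl, prolactin, had 33 counts in ibudilast replicate 4, 1.95 CPM with an interval of 1.34 to 2.74, and 0 or 1 count elsewhere. A count of 0 allows up to 0.158 to 0.209 CPM in these libraries, taken as 3 counts. Intervals and limits cover counting error only, and Gh1 and Prl were too low to enter the fit.

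Ependymal genes were led by ibudilast replicate 1. Foxj1, the factor that switches on genes of motile cilia, had 65.2, 21.8, 10.5, 17.0 and 14.2 CPM in ibudilast replicates 1 to 5, against 7.87, 42.7, 8.30, 19.3 and 10.6 CPM in untreated replicates 1 to 5. Ccdc153, a coiled-coil gene of ciliated cells, had 26.5, 10.9, 6.00, 3.90 and 8.34 CPM in ibudilast replicates 1 to 5, against 2.83, 4.90, 3.31, 9.29 and 4.55 CPM in untreated replicates 1 to 5. Rarres2, the precursor of the chemoattractant chemerin, had 20.4, 15.8, 21.7, 56.7 and 20.0 CPM in ibudilast replicates 1 to 5, against 13.04, 27.6, 14.9, 14.7 and 17.6 CPM in untreated replicates 1 to 5. Foxj1 was next highest in untreated replicate 2, like the choroid plexus genes. Ccdc153 was not, being there at 1.25 times the median of the other untreated libraries, and Rarres2 was highest in ibudilast replicate 4.

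**Figure D3:**
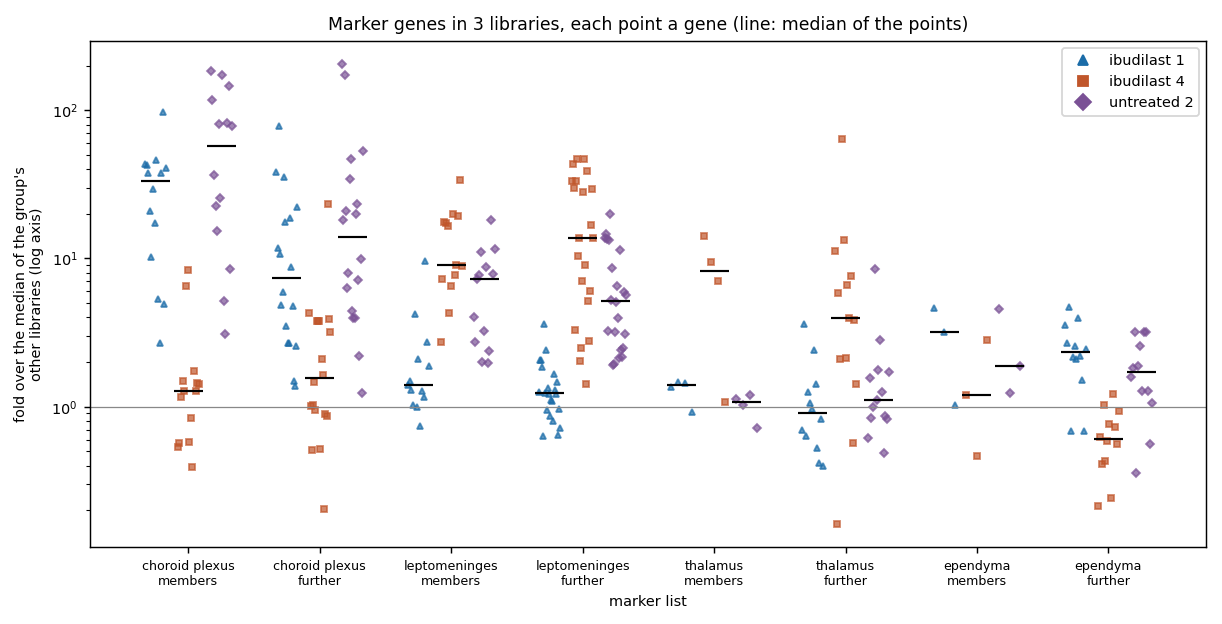
Level of each marker in ibudilast 1, ibudilast 4 and untreated 2 over the median of its own group's other libraries (ibudilast 2, 3 and 5, or untreated 1, 3, 4 and 5), on a log axis with a line at the median over genes, for the described genes and for further markers of the same tissues. The choroid plexus points of ibudilast 1 and untreated 2 and the leptomeningeal points of ibudilast 4 and untreated 2 stand above 1, and thalamic points do so mainly in ibudilast 4.

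Further markers of the same tissues, genes listed by tissue and none of them among the 39, were read in the same way. Their lists were drawn up with earlier results of these data known, so they are no independent check. The share of all genes highest in each library is not given here. Of 18 choroid plexus genes in the table, 15 had ibudilast replicate 1 and untreated replicate 2 as their highest pair, among them Ace, angiotensin-converting enzyme, with 230.3 CPM in ibudilast replicate 1 and 317 CPM in untreated replicate 2 and 10.4 to 25.7 CPM elsewhere. Of 22 leptomeningeal genes, 21 were highest in ibudilast replicate 4, and the fibrillar collagen gene Col1a1 had 6.85, 5.42, 4.74, 179.7 and 8.97 CPM in ibudilast replicates 1 to 5, against 7.45, 115, 14.1, 9.35 and 7.16 CPM in untreated replicates 1 to 5. Col1a2, which encodes its partner chain, reached 270.2 CPM in ibudilast replicate 4 and 166 CPM in untreated replicate 2. Of 12 genes of ependyma and motile cilia, 10 were highest in ibudilast replicate 1. Zmynd10, needed to assemble the motor arms of cilia, had 40.7, 23.0, 14.2, 22.4 and 18.4 CPM in ibudilast replicates 1 to 5, against 4.27, 18.5, 6.12, 8.91 and 5.51 CPM in untreated replicates 1 to 5. Of 14 genes of thalamus and habenula, 10 were highest in ibudilast replicate 4. Ntng1, with the highest mean CPM of the 14, was at 88.7 CPM there and at 30.6 to 61.1 CPM in the other 9. Slc17a6, the vesicular glutamate transporter of thalamic neurons, was at 132 CPM there and at 8.18 to 17.5 CPM in the other 9. Shox2, a homeobox gene of thalamus picked after its values were seen, was at 39.3 CPM there and at 0 to 0.536 CPM in the others. Tnnt1, a troponin gene of thalamus, went the other way, with 3.37 CPM in ibudilast replicate 4, the lowest of the 10, and 76.3 CPM in ibudilast replicate 1, the highest. Pituitary and hypothalamic genes did not share the pattern of Pomc, Gh1 and Prl as a list: 4 of 13 were highest in ibudilast replicate 4, 2 in ibudilast replicate 1 and 6 in other libraries, while Fshb, a gonadotropin subunit, was at 0 in all 10. Hcrt, the orexin precursor of the hypothalamus, was highest in ibudilast replicate 1, at 6.33 CPM, and had 0.354 CPM in ibudilast replicate 4. Pou1f1, the factor behind growth hormone and prolactin expression, was at 0 to 0.187 CPM. Of all 12355 genes tested, 69 (0.558%) were in ibudilast replicate 1 at least 5 times the median of ibudilast replicates 2, 3 and 5. The numbers were 178 (1.44%) in ibudilast replicate 4, over the same median, and 117 (0.947%) in untreated replicate 2, over that of the other untreated libraries. Of the 39 described genes, 15, 21 and 22 were that high in the same order. These genes were chosen because they stood high in single libraries, so these counts restate the choice and are no result. The 21 include Gh1 and Prl, which are not among the 12355 tested, and for Prl the median was 0.

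Between the groups, the fit across all genes called few of the 37. By edgeR's quasi-likelihood test with Benjamini-Hochberg adjustment, 1 of the 37 was called higher with ibudilast (Pomc), 1 lower (Rorb) and 35 did not pass. Of all 12355 genes, 47.1% were called in either direction, 24.3% higher and 22.8% lower. The choroid plexus genes had 0 of 14 called, the leptomeningeal genes 0 of 13, the growth factor genes 0 of 2, the thalamic genes 1 of 4, the pituitary genes 1 of 1 tested and the ependymal genes 0 of 3. The median log2 fold change, ibudilast over untreated, was 0.26 over the 37 genes and 0.02 over all genes. Groups did not overlap for Rorb and Pomc, against 33.4% of all genes tested.

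Rorb had 7.60 ± 1.10 CPM in ibudilast rats and 14.4 ± 3.86 CPM in untreated rats (SD, n = 5 each), a log2 fold change of −0.92 ± 0.18 (SE). Over the 21 alternatives it lay between −1.08 and −0.79. Pomc averaged 9.49 ± 13.7 CPM in ibudilast rats and 1.79 ± 0.685 CPM in untreated rats (SD, n = 5 each), a log2 fold change of 2.41 ± 0.77 (SE). Without ibudilast replicate 4 its log2 fold change was 0.89, still called, and without all 3 libraries it was 0.66 and not called. It was not called either without untreated replicate 1, 2, 4 or 5 (2.21 to 2.46). Leaving out ibudilast replicate 4 brought in calls of Lum, Foxc1, Lef1 and Ccdc153, and leaving out untreated replicate 2 calls of Igfbp2 (2.58) and Crabp2 (2.87, both log2 fold changes). Ccdc153 was called without untreated replicate 4 as well, and by DESeq2 (log2 fold change 1.15), which gave Pomc no adjusted p.

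For the choroid plexus genes the fitted fold change followed whichever of the 2 high libraries was left in. Ttr had a log2 fold change of −0.04 ± 1.80 (SE) with all 10 libraries, −3.29 without ibudilast replicate 1, 4.08 without untreated replicate 2 and 1.02 ± 0.92 without all 3 libraries. F5 moved from −0.55 with all libraries to −4.24 without ibudilast replicate 1 and to 3.52 without untreated replicate 2. None of these values of Ttr and F5 passed the test. Leptomeningeal genes moved with ibudilast replicate 4 and with untreated replicate 2. Aldh1a2 had a log2 fold change of 0.84 ± 1.10 (SE) with all libraries, −1.55 without ibudilast replicate 4 and 1.98 without untreated replicate 2. Ptgds had 1.31 ± 1.03 (SE), −0.74 and 2.46 in the same order, and Slc13a4 had 0.17 ± 1.15 (SE), −0.84 and 2.18. Tcf7l2, of the thalamus, had 1.66 ± 0.78 (SE) with all libraries, −0.10 without ibudilast replicate 4 and 1.69 without untreated replicate 2. Of the 37 genes, 32 took the opposite sign under at least 1 of 21 alternatives, and Ccdc153, Crabp2, Pomc, Rarres2 and Rorb did not.

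**Figure D4:**
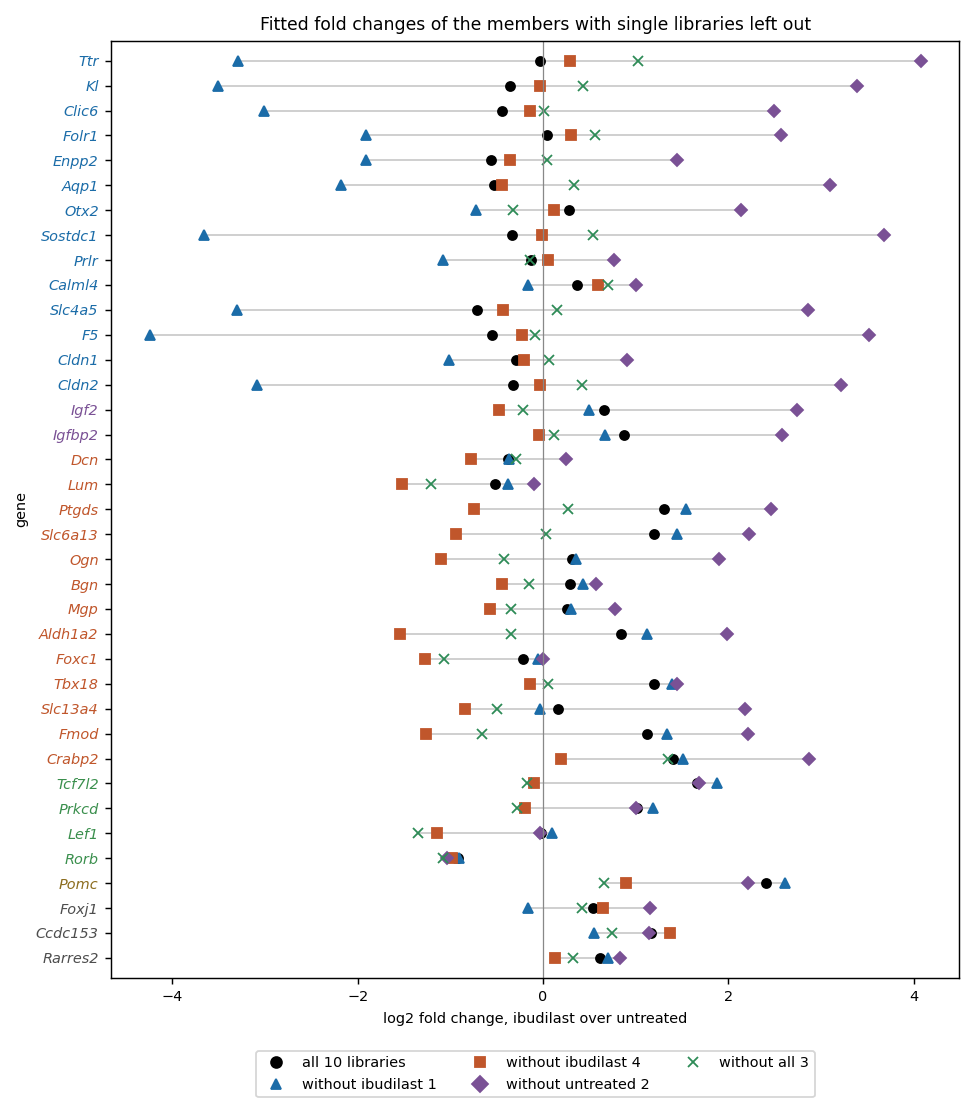
Fitted log2 fold change of the 37 genes, ibudilast over untreated, with all 10 libraries and with ibudilast 1, ibudilast 4, untreated 2 or all 3 left out. Choroid plexus genes spread widely to both sides of 0 (Ttr from −3.29 to 4.08), and Rorb stays near −0.92.

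The 3 libraries were picked by the summed levels of these same genes, so values without them describe what remains and test nothing. With 3 ibudilast and 4 untreated libraries left, 1 of the 37 genes was called higher and 4 lower, against 20.8% and 21.8% of the 12387 genes then tested (42.6% in either direction). Crabp2 averaged 2.51 ± 0.853 CPM (SD, n = 3) in ibudilast rats and 0.977 ± 0.348 CPM (SD, n = 4) in untreated rats, a log2 fold change of 1.34 ± 0.35 (SE). The 4 lower were Lum, Foxc1, Lef1 and Rorb, with log2 fold changes of −1.21, −1.07, −1.35 and −1.08. For Lum the ibudilast values of 1.79, 2.02 and 3.07 CPM lay below the lowest untreated value, 3.75 CPM. Lef1 had no overlap either, whereas Foxc1 did overlap, with 6.37 CPM in ibudilast replicate 5 against 6.19 CPM in untreated replicate 1. The choroid plexus genes had 0 of 14 called in this fit, with log2 fold changes between −0.32 (Otx2) and 1.02 (Ttr).

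Of the further markers of these tissues, 60 of 79 in the table were tested, and 5 were called higher, 0 lower and 55 did not pass, against 24.3% higher and 22.8% lower over all genes. Their median log2 fold change was 0.48, against 0.02 over all genes. The 5 were Col6a2, a collagen VI chain, Postn, periostin, Zmynd10 and Ccdc39 of motile cilia, and Tbx19, the factor that drives Pomc in the pituitary. Postn and Tbx19 were below 4 CPM in every library. Ccdc39 had 40.5, 25.0, 26.7, 19.5 and 27.8 CPM in ibudilast replicates 1 to 5, against 13.1, 17.3, 13.05, 19.2 and 13.8 CPM in untreated replicates 1 to 5, and its groups did not overlap. Its log2 fold change was 0.87 (adjusted p = 0.00360 by edgeR). Without ibudilast replicates 1 and 4 and untreated replicate 2, 5 were called higher and 2 lower, against 20.8% and 21.8% of all genes. These lists were drawn up with earlier results of the data known.

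Genes outside all marker lists whose levels were most like those of the choroid plexus genes were found by the Pearson correlation of log2 CPM, centred within each group, with the mean of the 14 genes over 10 libraries, among 11405 candidates. The 8 with the highest values, 0.973 to 0.983, were Spag8, Ptger1, Slc4a2, Prtg, Slco1a5, Mapk4, Itgb6 and Glb1l. Slco1a5, an organic anion transporter, had 37.3, 1.79, 0.837, 0.473 and 0.289 CPM in ibudilast replicates 1 to 5, against 0.301, 50.6, 2.06, 0.384 and 0.170 CPM in untreated replicates 1 to 5. Ptger1, a prostaglandin E2 receptor, reached the same correlation with a small range, 10.3 to 11.3 CPM in ibudilast rats and 6.48 to 7.53 CPM in untreated rats. For the 13 leptomeningeal genes the 8 were Cpz, Slc6a20, Rbms1, Fbln5, Mrc1, Bmp6, Srpx and Cd163, with correlations of 0.982 to 0.994. Slc6a20, a proline transporter, had 8.98, 7.68, 5.23, 131 and 7.47 CPM in ibudilast replicates 1 to 5, against 7.45, 82.2, 15.2, 9.80 and 8.52 CPM in untreated replicates 1 to 5. Mrc1 and Cd163, scavenger receptors of macrophages that live around vessels and in the meninges, were at 23.0 and 11.99 CPM in ibudilast replicate 4, at 14.8 and 4.95 CPM in untreated replicate 2 and below 5 CPM in the other 8. The 10 points include the libraries that stood apart, and the correlations are descriptions with no test.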

How the data were processed

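RNA of the left hippocampus was measured in 1 library per rat, 5 ibudilast and 5 untreated, grouped by sample title. The design text describes each as a rat of its own. A strand-specific mRNA kit was used, per the labels. The deposited table holds expected counts per gene, estimated by the authors, of which 12% of values were not whole, and they were rounded before testing. Tools named in the submitters' processing notes, with no role for each, are RSEM 1.2.15, Bowtie2 2.1.0, edgeR and bcl2fastq, beside the genome build rn6. The annotation is not given in the sources used here. A normalized table was not used. All columns were matched to samples (0 were not).

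Groups were compared in R 4.3.3 by quasi-likelihood testing in edgeR 4.0.16, with limma 3.58.1 (TMM factors, robust fit, filterByExpr), and Benjamini-Hochberg adjustment at 0.05 over 12355 genes. It was also run on simulated counts with few genes changed and no library set apart. That run cannot show how the fit behaves where single libraries stand apart. CPM use TMM-scaled library sizes, and log2 CPM a prior count of 2. No pair of libraries of a group agreed within sampling noise (lowest chi-square per gene 11.5). The 39 genes and all lists were chosen with earlier results of these data known. Named besides them are up to 4 further markers per list by mean CPM, those that passed, 8 genes per tissue by correlation (mean of at least 1 CPM, no placeholder symbol) and, chosen after their values were seen, Shox2, Fshb, Pou1f1 and Tdo2. Alternatives were other scaling factors, DESeq2 1.42.0, limma-voom, other filters (none, or 10 counts in 5 libraries), a replicate block, and leaving out single libraries or the highest of each tissue. Sequences are RefSeq's on GRCr8, and no coordinates come from the rn6 files.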

Additional observations from a re-analysis of the deposited data

Results flagged for a closer look

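In 59 of 78 groups of 5 libraries, counting each of the 39 genes once for ibudilast and once for untreated rats, the highest library lay far from the other 4 by Dixon's criterion. The genes were chosen because they stood high in single libraries, so this count restates the choice and is no result. The criterion's nominal rate is 5%, and its rate over all genes of these libraries was not worked out. The library was ibudilast replicate 1 in 14 of them, ibudilast replicate 4 in 18, untreated replicate 2 in 25 and another in 2. At least 1 group stood out for 37 of the genes.

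Among the choroid plexus genes, CPM in ibudilast replicate 1 was 6666 for Ttr, 211 for Kl, 163 for Clic6, 55.2 for Folr1, 1562 for Enpp2, 47.3 for Aqp1, 113 for Sostdc1, 28.8 for Prlr, 27.7 for Calml4, 103 for Slc4a5, 189 for F5, 18.5 for Cldn1 and 108 for Cldn2. In untreated replicate 2 it was 7121 for Ttr, 278 for Kl, 229 for Clic6, 57.8 for Folr1, 2689.9 for Enpp2, 85.1 for Aqp1, 31.9 for Otx2, 148 for Sostdc1, 30.7 for Prlr, 181 for Slc4a5, 281 for F5, 29.0 for Cldn1 and 143 for Cldn2. Calml4 stood out in the ibudilast group and Otx2 in the untreated group, and neither did in the other. Among the leptomeningeal genes, CPM in ibudilast replicate 4 was 14.7 for Lum, 8144 for Ptgds, 61.0 for Slc6a13, 109 for Ogn, 162 for Bgn, 43.5 for Mgp, 92.7 for Aldh1a2, 29.1 for Foxc1, 21.4 for Tbx18, 153 for Fmod and 23.4 for Crabp2. In untreated replicate 2 it was 47.6 for Dcn, 2595 for Ptgds, 19.4 for Slc6a13, 91.2 for Ogn, 88.3 for Bgn, 29.4 for Mgp, 38.5 for Aldh1a2, 119.6 for Slc13a4, 51.1 for Fmod and 9.48 for Crabp2. For Dcn and Slc13a4 the gap was seen in untreated rats and not in ibudilast rats, and for Lum, Foxc1 and Tbx18 the reverse held.

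Of the other genes, CPM in ibudilast replicate 4 was 137 for Tcf7l2, 125 for Prkcd, 15.9 for Lef1, 33.9 for Pomc, 8.74 for Gh1, 1.95 for Prl and 56.7 for Rarres2. In ibudilast replicate 1 it was 65.2 for Foxj1. In untreated replicate 2 it was 767 for Igf2 and 278 for Igfbp2. Lef1 stood out in untreated replicate 3 at 7.99 CPM. Prl did so in untreated replicate 5 at 0.0568 CPM, which is 1 count where the other 4 had 0.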

How the results depend on the processing

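Over all genes, 5817 were called, and counts under the alternatives stayed within 1.5 times of it, from 4726 (replicate block) to 6292 (without untreated replicate 3). Leaving out 1 rat gave 5115 to 6292 genes, 2549 to 3068 of them higher and 2461 to 3224 lower. Of the 39 genes, 2 were called in the reported fit, 1 higher and 1 lower. Leaving out 1 rat gave 1 to 6 called, 0 to 2 higher and 1 to 4 lower, with the most without ibudilast replicate 4. By limma-voom 1 was called and 0 higher. With no filter on low counts 2 were higher. Without the highest leptomeningeal library of each group 7 were called, 3 higher and 4 lower. Without all 3 libraries, an alternative chosen after seeing the data, 5 were called and 4 were lower. The further markers had 5 called, 5 higher and 0 lower. With no filter 8 were called, 8 higher. Without the highest leptomeningeal libraries 10 were called, 3 lower, and without all 3 libraries 2 were lower. Leaving out 1 rat gave 4 to 8, with 4 to 7 higher and 0 to 4 lower. The cause was not tested. Of 777 fold changes of the 37 genes under alternatives, 50 moved by more than the spread between rats.

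Replicate numbers are shared by the groups, and the labels do not say that they pair rats. Same-number libraries had correlations of −0.303, −0.329, −0.247, −0.106 and 0.419 in their deviations from the group means. These values have no different-number pairs beside them and cannot decide whether the numbers pair rats. With the replicate block 4726 genes were called, 1 of the 39 genes and 0 higher, and 3 further markers, 3 higher. Pomc was not called with the block (log2 fold change 1.64) nor by limma-voom (1.70), and DESeq2 gave it no adjusted p. Counting depth limits Gh1 and Prl, which stood at 0 to 2 counts in most libraries.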
